A study of Mus musculus with 10 samples.

Results

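The genes described here are 10 members of the growth factor and MAP kinase circuit: the phosphatases Dusp1, Dusp4 and Dusp6, the Sprouty inhibitors Spry1, Spry2 and Spry4, the EGF-type ligands Hbegf, Ereg and Areg, and their receptor Egfr. They were chosen by measured values, since Dusp6 and Hbegf lay lower with the K165A form of G9a than with the wild-type form, and the remaining members were added for their place in the same circuit. Members were found by the gene symbol that the array platform gives each probe set, a group of short probes read together as 1 signal. Of the 10 genes, 8 had a probe set named by that gene alone, 15 probe sets in all, out of 12394 genes and 22626 probe sets on the array. Dusp4 and Areg had none and are not analysed here. A further filter on dim signal kept 10 of the 15 probe sets and 7 of the 8 genes for testing, leaving out both probe sets of Spry4.

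EGF-type ligands are made as membrane-anchored precursors that are cut free by metalloproteases and bind receptors of the EGF receptor family, which switch on Ras, Raf, MEK and the kinase ERK. ERK activity raises transcription of its own inhibitors: dual-specificity phosphatases remove phosphate from MAP kinases, and Sprouty proteins block signalling between the receptor and Raf. In cultured fibroblasts the circuit responds to serum growth factors, and several of its genes are induced within minutes to hours and turned off again.

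The cells were mouse embryonic fibroblasts (connective tissue cells cultured from embryos), and their transcripts were read on 10 arrays, 2 for each of 5 groups. Cells of 4 groups had lost G9a, a histone H3 methyltransferase encoded by Ehmt2. They were reconstituted with a vector that held no insert (delta), with G9a of wild-type sequence under a FLAG tag (WT), or with FLAG-G9a bearing 1 of 2 substitutions, K165A or, in what the labels call a catalytic mutant, H1093K. The fifth pair is titled only deleted, and the labels name no vector for it. The title of the series concerns methylation of G9a itself at a site resembling a histone, so the comparisons ask what restored G9a changes and whether either substitution alters it. The labels give neither the number of cell lines or clones, nor how G9a was removed, nor whether the paired arrays stand for separate cultures. A p-value here thus reflects the spread between arrays, possibly only technical, and their small number limits the precision.

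Signals were compared as log2(signal + 16) with limma, 2-sided, with Benjamini-Hochberg adjustment over all 13576 probe sets tested, and a difference is called where the adjusted p lies under 0.05. Ehmt2 signal at its brighter probe set was 415 and 473 on the delta arrays, 461 to 494 in H1093K, 620 to 725 in WT and K165A, and 1678 and 1750 on the arrays labelled deleted. It was higher than delta in WT (log2 difference 0.53, limma adjusted p = 0.00474) and K165A (0.67, adjusted p = 0.00128), whereas H1093K did not differ from delta past the threshold (0.10, -0.10 to 0.31, adjusted p = 0.737) and lay below WT (-0.43, adjusted p = 0.0185). At this probe set the H1093K arrays thus lack the rise in Ehmt2 signal seen with the other G9a forms. The signal was highest on the arrays labelled deleted, a level that the label does not explain. A second, dim Ehmt2 probe set, left out by the filter, read 7.135 and 36.47 in delta and 116.5 and 55.65 in H1093K. It read 40.88 and 105.8 in WT, 90.41 and 177.9 in K165A, and 162.1 and 246.8 on the arrays labelled deleted. There both H1093K arrays lay above delta and overlapped WT and K165A. The sources used here do not place the probes relative to the deletion or the introduced sequence. H1093K therefore stands below for the arrays labelled so, on which the substitution and the lower Ehmt2 signal at the brighter probe set cannot be told apart. Of 10 fibroblast markers, 8 were tested and bright, among them the collagens Col1a1 and Col1a2 and vimentin (Vim), with group means of 7483 to 13769. Pdgfra and Dcn, a receptor and a matrix protein that also mark fibroblasts, had group means of 80.2 and 30.6 at most outside the arrays labelled deleted, where they reached 1686 and 1438. The summed signal of 8 epithelial markers was 3823 to 4122 in delta, 1131 to 1255 in WT, 1029 to 1162 in K165A, 2684 to 2896 in H1093K and 4285 to 4318 on the arrays labelled deleted. Krt7 was its brightest gene in the reconstituted groups, with means of 2609 in delta, 338 in WT, 372 in K165A and 1773 in H1093K, and Krt18 (2071) and Krt8 (1604) on the arrays labelled deleted, while the epithelial adhesion gene Epcam did not exceed a group mean of 26.2. The leukocyte gene Ptprc and the endothelial gene Pecam1 did not exceed 27.7 and 20.5. In bulk RNA, fewer cells of a type and less RNA per cell cannot be told apart.

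Promoter stretches are shown for the members whose levels the results turn on: Spry2 and Egfr, which varied together over the reconstituted cells, and Dusp1 and Dusp6, phosphatase genes that moved in opposite directions on the arrays labelled deleted. Each is the 250 bases before the annotated start, 5′ to 3′ on the gene's strand, from RefSeq on GRCm38.p6. Of the 10 members, 6 had an entry. The stretches lie at chr14:105896820-105897069 (minus strand), chr11:16751953-16752202 (plus strand), chr10:99262981-99263230 (plus strand) and chr17:26508473-26508722 (minus strand). Capitals mark every match to the 6 motifs described after the sequences.
Spry2: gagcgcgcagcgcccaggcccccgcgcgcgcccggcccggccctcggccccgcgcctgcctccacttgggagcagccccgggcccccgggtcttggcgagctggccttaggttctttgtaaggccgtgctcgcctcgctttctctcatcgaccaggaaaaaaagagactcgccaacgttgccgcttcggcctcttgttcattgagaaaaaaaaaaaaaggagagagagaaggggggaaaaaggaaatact
Egfr: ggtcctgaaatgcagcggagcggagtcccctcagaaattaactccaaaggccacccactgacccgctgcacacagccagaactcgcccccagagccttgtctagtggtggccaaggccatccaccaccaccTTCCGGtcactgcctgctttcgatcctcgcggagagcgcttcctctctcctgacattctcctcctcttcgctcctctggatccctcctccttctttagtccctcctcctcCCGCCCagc
Dusp6: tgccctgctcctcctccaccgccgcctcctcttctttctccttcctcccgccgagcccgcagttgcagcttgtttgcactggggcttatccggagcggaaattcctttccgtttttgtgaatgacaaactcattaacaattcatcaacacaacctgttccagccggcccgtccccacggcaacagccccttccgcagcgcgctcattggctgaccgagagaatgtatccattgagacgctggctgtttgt
Dusp1: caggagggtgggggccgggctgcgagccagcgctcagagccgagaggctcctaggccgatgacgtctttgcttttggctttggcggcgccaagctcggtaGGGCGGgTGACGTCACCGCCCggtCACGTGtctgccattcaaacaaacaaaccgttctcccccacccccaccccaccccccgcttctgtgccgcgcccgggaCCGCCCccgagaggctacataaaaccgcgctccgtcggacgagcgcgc

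Motifs searched on both strands were AP-1 (TGANTCA), the cyclic AMP response element CRE (TGACGTCA), the ETS core (CCGGAA), the GC box (GGGCGG), the E-box (CACGTG) and the serum response CArG box. Among 32851 promoter windows of the same length, 6.75% held the AP-1 letters, 1.55% the CRE, 12.0% the ETS core, 32.7% a GC box, 6.02% an E-box and 1.47% a CArG box. The Dusp1 stretch held 1 CRE between a pair of GC boxes, a further GC box and 1 E-box, none overlapping another. Egfr had 1 ETS core, read on the opposite strand, and 1 GC box, and neither Spry2 nor Dusp6 had a match in this window. CG pairs numbered 28 in Dusp1, 23 in Spry2, 16 in Dusp6 and 11 in Egfr, against a median of 6 over all windows. A match describes the letters and is not a measured binding site.

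**Figure D1:**
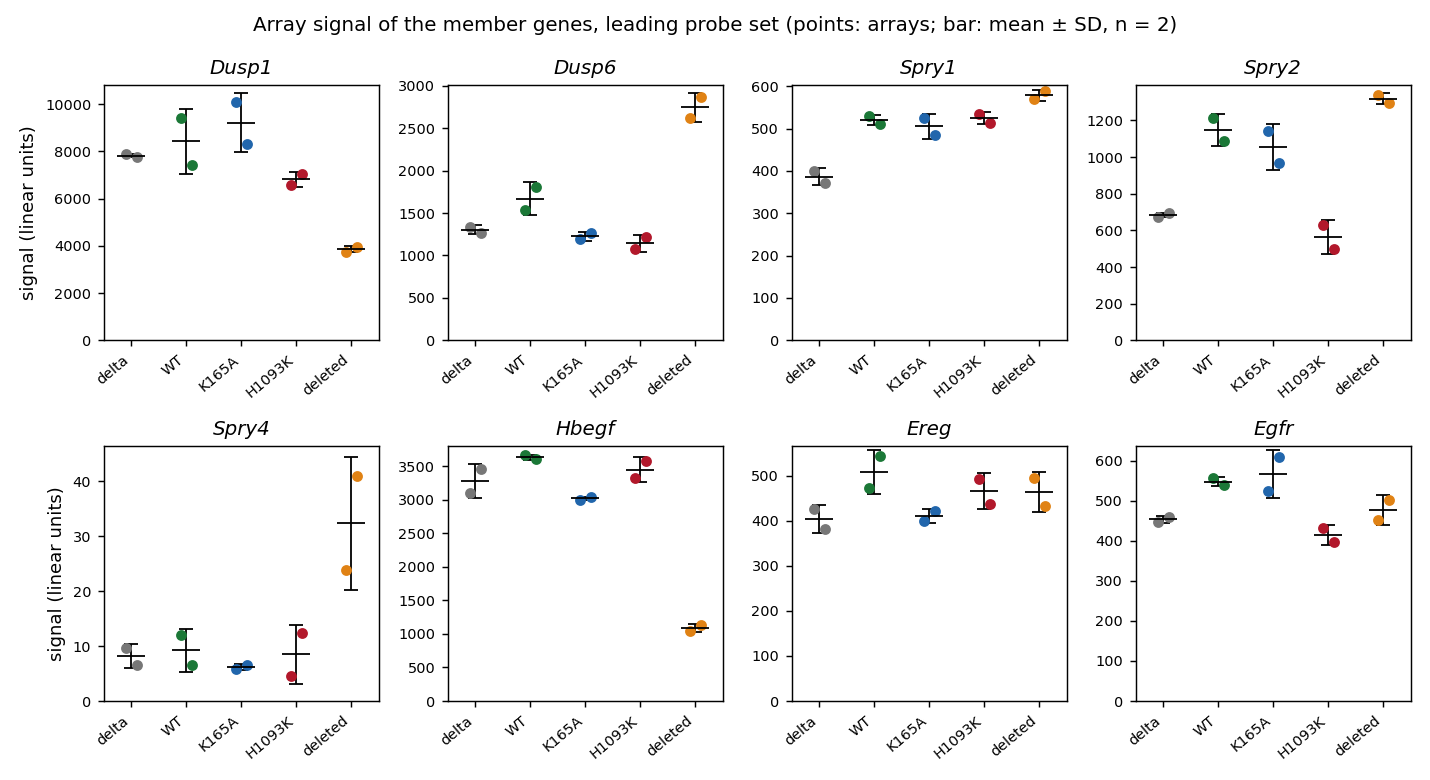
Array signal in linear units (y axis) of the 8 member genes on the array, by group (x axis), with points for arrays and bars for the mean and SD (n = 2). Spry2 stands higher in WT and K165A than in delta and H1093K, and Hbegf and Dusp1 are lowest, and Dusp6 highest, on the arrays labelled deleted.

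Among the phosphatases, Dusp1, which acts on p38, JNK and ERK in the nucleus, did not differ past the threshold between delta and any reconstituted group. Its signal was 7871 and 7776 in delta, 9398 and 7446 in WT, 10110 and 8326 in K165A, 6594 and 7050 in H1093K, and 3760 and 3940 on the arrays labelled deleted. The WT arrays lay on both sides of delta, K165A and WT overlapped, and the arrays labelled deleted lay below all others. Against delta, the difference was 0.10 on the log2 scale in WT (95% interval -0.19 to 0.39, limma adjusted p = 0.701), 0.23 in K165A (-0.06 to 0.52, adjusted p = 0.316) and -0.20 in H1093K (-0.49 to 0.09, adjusted p = 0.621). The WT value changed sign under quantile normalization (-0.05) and without WT replicate 1 (-0.07). Dusp1 was higher in K165A than in H1093K by 0.43 (0.14 to 0.72), which did not pass (adjusted p = 0.0852). With the replicate number as a block it did (adjusted p = 0.0426), as it did under quantile normalization, where the difference was 0.25 (adjusted p = 0.0132), and without either WT array (0.0443 and 0.0446). Over its 20 alternatives that adjusted p ran from 0.0132 to 0.386.

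Dusp6, a cytoplasmic phosphatase selective for ERK and a widely used readout of ERK activity, was one of the genes on whose WT and K165A levels the set was chosen. Its signal was 1339 and 1269 in delta, 1532 and 1805 in WT, 1190 and 1265 in K165A, 1075 and 1214 in H1093K, and 2623 and 2866 on the arrays labelled deleted. Both WT arrays lay above the delta, K165A and H1093K arrays, K165A lay just under delta, and H1093K overlapped K165A. As a description with no test, the log2 difference was 0.35 for WT against delta, -0.09 for K165A against delta and -0.54 for H1093K against WT. The first of these was 0.23 without WT replicate 2 and 0.46 without WT replicate 1. H1093K and delta differed by -0.19 (-0.41 to 0.03, limma adjusted p = 0.511), which did not pass.

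Sprouty genes gave most of the member calls among the reconstituted cells. Spry2, an inhibitor of receptor tyrosine kinase signalling, rose 1.66-fold with wild-type G9a and 1.53-fold with K165A, but not on the arrays labelled H1093K. On those arrays Ehmt2 at its brighter probe set was not called above delta either. Spry2 signal was 675 and 693 in delta, 1211 and 1086 in WT, 1145 and 969 in K165A, 629 and 500.0 in H1093K, and 1341 and 1297 on the arrays labelled deleted. Both H1093K arrays lay below both delta arrays, the WT and K165A arrays overlapped each other and lay above them all, and the arrays labelled deleted were highest. Set against delta, Spry2 differed by 0.73 on the log2 scale in WT (0.47 to 1.0, limma adjusted p = 0.00348), 0.61 in K165A (0.35 to 0.88, adjusted p = 0.00946) and -0.28 in H1093K (-0.54 to -0.01, adjusted p = 0.393). The difference between the mutants was itself tested: Spry2 was higher in K165A than in H1093K by 0.89 (0.62 to 1.16, limma adjusted p = 0.0012), and lower in H1093K than in WT by 1.01, a fall of 2.02-fold (-1.28 to -0.75, adjusted p = 5.32e-04). The K165A call against delta was lost without K165A replicate 1 (adjusted p = 0.0711, the highest of 20 alternatives, which reached down to 6.79e-04). The other Spry2 calls among the reconstituted cells held under all 20 alternatives, with adjusted p of 0.0402 at most. A second, dim Spry2 probe set, left out by the filter, read 46.7 and 54.7 in delta, 81.9 and 55.0 in WT, 66.0 and 57.0 in K165A, 62.2 and 46.5 in H1093K, and 63.5 and 68.8 on the arrays labelled deleted. At that level H1093K overlapped delta, WT and K165A. Among the reconstituted groups the keratin Krt7 was lowest in WT and K165A, where Spry2 was highest. On the arrays labelled deleted Krt7 was lower still and Spry2 higher, but in H1093K the means of both lay below delta. Of 4 epithelial genes tested, Krt7 was the only 1 called lower than delta on the arrays labelled deleted. Krt8 and Krt18 rose there, 11.3-fold and 3.57-fold. The part of the cells that Krt7 marks in the Spry2 result was not tested.

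Spry1, a related inhibitor, had its lowest signal in delta, and H1093K stood with WT and K165A. Its signal was 401 and 372 in delta, 529 and 511 in WT, 526 and 485 in K165A, 535 and 514 in H1093K, and 569 and 588 on the arrays labelled deleted. Every other array lay above both delta arrays, and WT, K165A and H1093K overlapped. Spry1 rose 1.33-fold in WT (log2 difference 0.42, 0.21 to 0.62, limma adjusted p = 0.0167) and 1.30-fold in K165A (0.37, 0.17 to 0.58, adjusted p = 0.0271). In H1093K the difference was as large, 0.43 (0.22 to 0.63), but did not pass (adjusted p = 0.0701), and it passed with the replicate block (0.0206). H1093K and WT differed by 0.01 (-0.19 to 0.21, limma adjusted p = 0.962) and K165A and H1093K by -0.05 (-0.26 to 0.15, adjusted p = 0.822). Leaving out WT replicate 1 (adjusted p = 0.0978), WT replicate 2 (0.0653) or delta replicate 2 (0.100) ended the WT call, as did fitting only the arrays compared (0.0668). Its adjusted p ran from 0.00557 to 0.100 over 20 alternatives. The K165A call was lost without delta replicate 1 (0.0575), delta replicate 2 (0.148), K165A replicate 1 (0.139) or K165A replicate 2 (0.0543), and with only the arrays compared (0.136), over a range of 0.0095 to 0.148. Spry4, the third inhibitor, read 4.63 to 12.3 on the 8 reconstituted arrays at its brighter probe set and 23.8 and 40.8 on the arrays labelled deleted. Its other probe set read 4.28 to 15.8 on the former and 10.4 and 43.8 on the latter. Both lie near the pseudocount of 16, so no fold or order is drawn from them.

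Among the ligands, Hbegf, heparin-binding EGF-like growth factor, varied little among the reconstituted cells. At its brighter probe set the signal was 3094 and 3453 in delta, 3659 and 3603 in WT, 2999 and 3034 in K165A, 3316 and 3575 in H1093K, and 1045 and 1131 on the arrays labelled deleted. The WT arrays lay highest and the K165A arrays lowest of the 8, while H1093K overlapped delta. At the other probe set it was 1342 and 1587 in delta, 1740 and 1653 in WT, 1239 and 1378 in K165A, 1455 and 1586 in H1093K, and 392 and 399 on the arrays labelled deleted. There K165A overlapped delta too. As a description with no test, the log2 differences from delta at the brighter and the other probe set were 0.15 and 0.21 in WT and -0.11 and -0.16 in K165A. H1093K and delta differed by 0.07 (-0.11 to 0.26, limma adjusted p = 0.805) and 0.06 (-0.16 to 0.27, adjusted p = 0.889), which did not pass.

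Ereg, epiregulin, a ligand of the EGF receptor and of ErbB4, did not pass in any comparison tested. Its signal was 426 and 383 in delta, 474 and 543 in WT, 399 and 421 in K165A, 494 and 438 in H1093K, and 496 and 433 on the arrays labelled deleted. The WT arrays lay above the delta and K165A arrays and overlapped H1093K, and K165A overlapped delta. The largest difference tested was 0.32 in WT against delta (0.06 to 0.58, limma adjusted p = 0.119).

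For Egfr, the receptor, 3 of 5 probe sets were tested, and their patterns were alike in part. At the brightest the signal was 447 and 460 in delta, 556 and 540.0 in WT, 524 and 608 in K165A, 432 and 397 in H1093K, and 451 and 503 on the arrays labelled deleted. WT and K165A overlapped each other and lay above delta and H1093K, with H1093K below delta. Egfr was higher in K165A than in H1093K by 0.43 (0.20 to 0.67, limma adjusted p = 0.0349), a 1.35-fold difference. Against delta, WT differed by 0.27 (0.03 to 0.50, limma adjusted p = 0.143), K165A by 0.31 (0.07 to 0.54, 0.0959) and H1093K by -0.13 (-0.36 to 0.11, 0.720), none of which passed. H1093K against WT gave -0.39 (-0.63 to -0.16, limma adjusted p = 0.0508) and did not pass either. With the replicate block, K165A against delta (adjusted p = 0.0497) and H1093K against WT (0.0222) passed as well. With the mean of the 3 probe sets, WT against delta (0.41, limma adjusted p = 0.0309) and H1093K against WT (-0.47, adjusted p = 0.0196) passed. Over 21 alternatives the adjusted p ran from 0.0309 to 0.378 for WT against delta and from 0.0196 to 0.233 for H1093K against WT. The call between the mutants was lost without WT replicate 1 (0.0572), WT replicate 2 (0.0569), H1093K replicate 1 (0.0871), H1093K replicate 2 (0.193) or K165A replicate 2 (0.177), with only the arrays compared (0.115), and with the mean of the 3 probe sets (0.0573). Its adjusted p ran from 0.0141 to 0.193 over 21 alternatives.

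At the second-brightest Egfr probe set the signal was 399 and 440 in delta, 679 and 591 in WT, 455 and 542 in K165A, 399 and 424 in H1093K, and 392 and 349 on the arrays labelled deleted. WT stood above every other group, K165A lay between, and H1093K overlapped delta. Here Egfr rose 1.49-fold with wild-type G9a (0.58, 0.30 to 0.85, limma adjusted p = 0.0143) and was lower in H1093K than in WT (-0.60, -0.88 to -0.33, adjusted p = 0.0139), while K165A against H1093K did not pass (0.26, -0.01 to 0.53, adjusted p = 0.269). The WT call was lost without WT replicate 1 (0.110) or delta replicate 1 (0.0817), and the H1093K call without WT replicate 1 (0.124), H1093K replicate 1 (0.0993) or H1093K replicate 2 (0.0530). At the third, dimmer probe set the signal was 181 and 174 in delta, 234 and 217 in WT, 266 and 232 in K165A, 183 and 167 in H1093K, and 143 and 134 on the arrays labelled deleted. WT again lay above delta and H1093K, which overlapped each other, and K165A overlapped WT. Nothing passed there, although K165A against delta (0.45, limma adjusted p = 0.0624) and K165A against H1093K (0.47, adjusted p = 0.0692) did with the replicate block (0.0275 and 0.0293) and with no intensity trend (0.0250 and 0.0259). The remaining probe sets read 40.3 to 126 and 63.1 to 102 over all arrays and were left out by the filter. At the 3 tested probe sets WT thus lay above delta and H1093K. H1093K lay apart from delta only at the brightest, and the place of K165A relative to WT differed between probe sets.

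**Figure D2:**
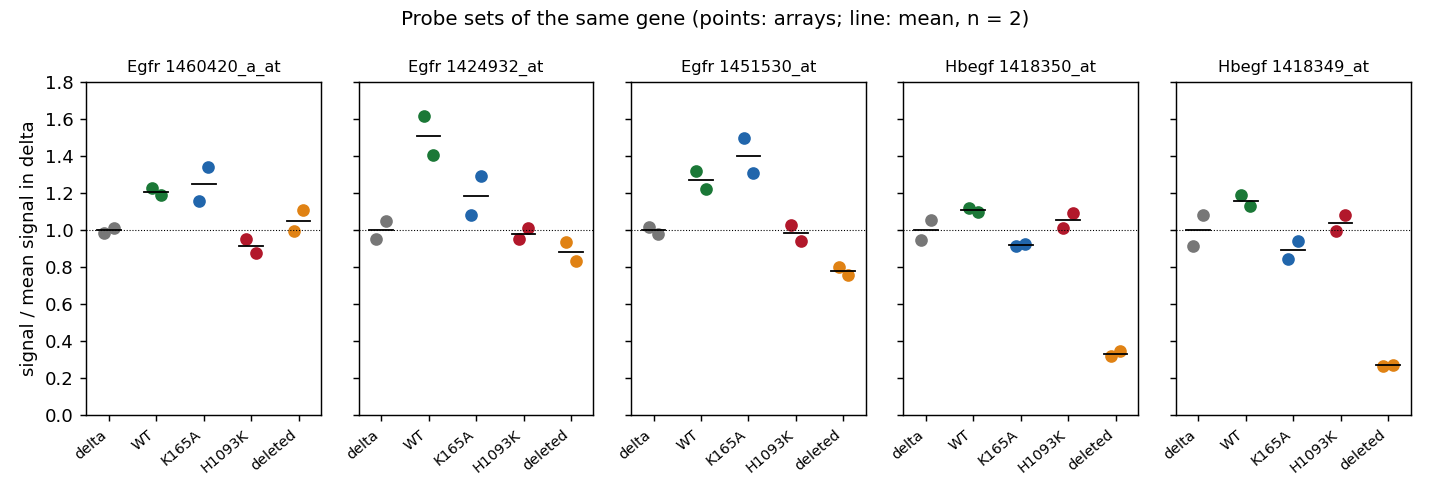
Signal of each tested Egfr and Hbegf probe set on each array, divided by the mean of the delta arrays at that probe set (y axis), by group (x axis), with lines for group means (n = 2). From left to right, for Egfr, WT stands at 1.21, 1.51 and 1.27 of delta and K165A at 1.25, 1.19 and 1.4, and both Hbegf probe sets fall to 0.332 and 0.27 on the arrays labelled deleted.

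Counted over members by their brightest probe set, wild-type G9a gave 2 calls among 5 members tested, both higher (Spry1 and Spry2), and K165A gave the same pair. Among all probe sets, 11.9% were called in WT against delta and 11.3% in K165A against delta. Dusp6 and Hbegf are left out of these counts because the set was chosen on their levels, and both comparisons share the delta arrays. The median difference over those 5 members was 0.32 in WT and 0.31 in K165A, beside a median of 0.00 over all probe sets in each. H1093K against delta gave 0 of 7 members by limma, beside 0.818% of all probe sets. An unadjusted p under 0.05 was found for 2 of the 7, beside 1607 of the 13576 probe sets tested. With the replicate block it gave 1, Spry1, and 472 probe sets in place of 111. H1093K against WT gave 1 of 5 members (Spry2, lower), beside 8.03% of all probe sets. K165A against H1093K gave 2 of 5 (Spry2 and Egfr, both higher), beside 7.42%. Egfr also passed under the block in H1093K against WT and in K165A against delta, and Dusp1 in K165A against H1093K, which gave 2, 3 and 3 members. The block also moved the counts over all probe sets, from 1616 to 2813 in WT against delta, from 1529 to 2678 in K165A against delta, from 1090 to 1946 in H1093K against WT and from 1007 to 1854 in K165A against H1093K.

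**Figure D3:**
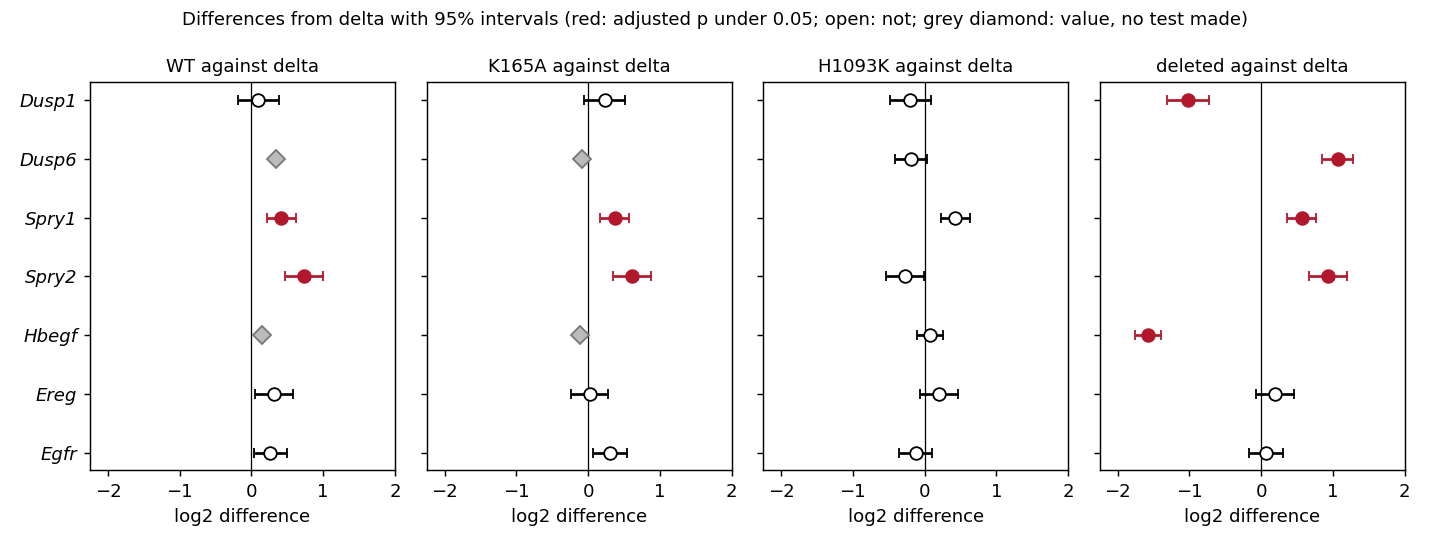
Difference from delta on the log2(signal + 16) scale (x axis) of the 7 member genes with a tested probe set (y axis), by comparison, with 95% intervals from limma. Red points passed an adjusted p of 0.05, open points did not, and grey diamonds are values of Dusp6 and Hbegf for which no test was made; Spry1 and Spry2 are red in WT and K165A, and 5 of 7 members on the arrays labelled deleted.

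The members moved most on the arrays labelled deleted, where 5 of 7 were called against delta, 3 higher and 2 lower, beside 33.0% of all probe sets. Hbegf fell 2.98-fold and 3.59-fold at its probe sets (log2 differences -1.57, -1.76 to -1.39, limma adjusted p = 5.41e-07, and -1.84, -2.06 to -1.63, adjusted p = 5.73e-07). Dusp1 fell 2.03-fold (-1.02, -1.31 to -0.73, adjusted p = 2.37e-04), whereas Dusp6 rose 2.09-fold (1.06, 0.84 to 1.28, limma adjusted p = 2.87e-05). Spry2 rose 1.91-fold (0.93, 0.67 to 1.20, limma adjusted p = 2.40e-04) and Spry1 1.48-fold (0.56, 0.36 to 0.77, adjusted p = 0.00106). Ereg (0.19, -0.07 to 0.46, limma adjusted p = 0.244) and Egfr did not pass. The Egfr differences were 0.07 (-0.17 to 0.30, limma adjusted p = 0.660), -0.17 (-0.45 to 0.10, 0.313) and -0.33 (-0.63 to -0.02, 0.0934) from the brightest to the third probe set. The last passed under quantile normalization (0.0357) and with no intensity trend (0.0352). All 5 calls held under each of their 19 or 20 alternatives. Since Ehmt2 was highest on these arrays, these directions belong to the arrays as labelled and not to a known loss of G9a. Marker genes went both ways here. Of 4 epithelial genes tested, Krt8 (from a mean of 129 in delta to 1604) and Krt18 (from 568 to 2071) rose and Krt7 fell 23.2-fold (from a mean of 2609 in delta, limma adjusted p = 1.72e-08). Of 8 fibroblast genes tested, Col3a1 rose 3.41-fold and Pdgfrb 1.83-fold, while S100a4 fell 5.47-fold and Thy1 1.57-fold (limma adjusted p = 1.09e-05, 0.0012, 1.08e-07 and 0.00179). The fibroblast markers not tested, Pdgfra and Dcn, were far brighter here than in every reconstituted group, by the means given above. The part of the cells these genes mark in the member results was not tested.

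K165A against WT is the contrast on which the set was chosen, so its values are a description with no test. Over all 13576 probe sets tested, limma called 0 (0%), with 429 at an unadjusted p under 0.05 and 0 with the replicate block. Dusp6 differed by -0.43 on the log2 scale and Hbegf by -0.27 and -0.37 at its probe sets, and for both genes both K165A arrays lay below both WT arrays. Without WT replicate 1 the Dusp6 difference was -0.55 and without WT replicate 2 it was -0.32. Ereg differed by -0.30, again with no overlap. Egfr went both ways, with -0.34 at its second-brightest probe set but 0.04 and 0.13 at the brightest and the third. Dusp1 (0.13), Spry1 (-0.04) and Spry2 (-0.12) overlapped between the groups. Dusp1 turned to -0.03 without WT replicate 2 and to -0.01 without K165A replicate 1.

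Across arrays, the members did not vary as 1 block. Over the 8 reconstituted arrays, which share a platform and its scaling, Spry2 and Egfr had Pearson's r = 0.90, the highest of the 21 pairs of members, and Spry2 and Dusp1 had 0.76. Dusp6 and Hbegf had r = 0.50 over those 8 arrays and -0.86 over all 10. Both genes were chosen for lying lower in K165A than in WT, whose arrays are among the 8. Their r over the 8 is thus partly set by the choice. Dusp1 and Hbegf had 0.90 over all 10 arrays and -0.33 without the arrays labelled deleted. For these pairs of genes the values over 10 arrays therefore rest on the arrays labelled deleted. Not every pair changed so, since Dusp6 and Spry2 had 0.70 over all 10 arrays and 0.55 over the 8. No correlation is given a p. Genes whose probe set followed Dusp6 most closely over the 10 arrays were Cd1d1 (r = 0.97), an antigen-presenting molecule, then Zfp532, Pnkd, Dusp11 and Rhou (0.96 to 0.97). Those closest to Hbegf were Csrp2 (r = 0.99), a LIM domain protein of muscle and mesenchyme, then Rgs3, Klf9, Polr1e and Lmcd1 (0.99 each). They head a long run of genes with nearly as high an r over the 10 arrays. That run was absent over the 8 reconstituted arrays. Without the arrays labelled deleted other genes came first, Boc for Dusp6 (r = 0.96) and Wdr61 for Hbegf (0.94), a choice of arrays made after the data were seen.

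Other genes of the circuit were counted from lists, to be read beside the shares of all probe sets called: 11.9% in WT, 11.3% in K165A, 0.818% in H1093K and 33.0% on the arrays labelled deleted, each against delta. Of 15 further EGF-type ligands, ErbB receptors and shedding proteases, 7 were tested. By limma 0 passed in K165A or H1093K against delta, with 3 and 0 at an unadjusted p under 0.05. Over all 13576 probe sets tested, 3382 and 1607 had such a p in these comparisons. Of the 7 genes, 2 fell in WT against delta and 1 fell on the arrays labelled deleted. The 2 were Adam12, a metalloprotease that can release Hbegf (1.59-fold, from 499 ± 53.9 to 308 ± 23.7, SD, n = 2, limma adjusted p = 0.0204), and the receptor gene Erbb3 (1.44-fold, adjusted p = 0.0487). Adam12 was also higher in H1093K than in WT (1.62-fold, limma adjusted p = 0.0205). Adam9, a related protease, was the 1 that fell on the arrays labelled deleted (1.23-fold, limma adjusted p = 0.010). None of these calls held with every array left out in turn. Adam12 in WT was lost without either WT array or delta replicate 1 (adjusted p up to 0.119), Adam12 in H1093K against WT without any 1 of the 4 arrays compared (up to 0.131), and Adam9 without delta replicate 2 or deleted replicate 1 (up to 0.0946). Erbb3 was lost without any 1 array but delta replicate 2 (up to 0.268). No call of this list was lost with the replicate block, and Adam12 was called lower than delta in K165A (adjusted p = 0.00661) and on the arrays labelled deleted (0.0108) as well, and Adam9 in WT (0.0302). The list's median difference was -0.01, -0.14, 0.00 and -0.13 in WT, K165A, H1093K and deleted against delta.

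Of 22 other feedback regulators, 15 were tested. In WT against delta 2 rose and 1 fell, in K165A 3 rose and 2 fell, in H1093K 1 fell, and on the arrays labelled deleted 2 rose and 5 fell, with median differences of 0.02, 0.02, 0.05 and -0.04. Dusp7, an ERK-selective phosphatase, rose 1.58-fold in WT (limma adjusted p = 0.0262) and 1.72-fold in K165A (adjusted p = 0.0125), and was higher in K165A than in H1093K (1.62-fold, 0.0279). Socs3, which restrains cytokine signalling, rose 1.92-fold in WT, from 1457 ± 203 to 2813 ± 353 (SD, n = 2, limma adjusted p = 0.0191), and was 2.13-fold lower in H1093K than in WT (adjusted p = 0.0115). Dusp14 fell 1.46-fold in K165A (limma adjusted p = 0.00267), 1.39-fold in H1093K (0.0402) and 2.59-fold on the arrays labelled deleted (1.79e-06), and Dusp10, a phosphatase of p38 and JNK, fell 2.65-fold there (1.15e-05). Spred1, a Sprouty-related inhibitor of Ras, rose 1.44-fold in K165A (limma adjusted p = 0.0177) and 1.96-fold on the arrays labelled deleted (1.55e-04). The K165A fall of Dusp14 and the 3 changes on the arrays labelled deleted held whichever array was left out. Under the block none of the list's calls was lost, and its count rose from 3 to 6 in WT, from 5 to 6 in K165A, where Socs3 was added (adjusted p = 1.46e-04), from 1 to 2 in H1093K and from 7 to 8 on the arrays labelled deleted. Dusp7 was lost in WT without any 1 of the 4 arrays compared, in K165A against delta without either delta array or K165A replicate 1, and in K165A against H1093K without either K165A array or H1093K replicate 1 (adjusted p up to 0.167). Socs3 was lost in WT without either WT array or delta replicate 2 (up to 0.132), and in H1093K against WT without WT replicate 1 or H1093K replicate 2 (up to 0.105). Spred1 in K165A was lost without either delta array or K165A replicate 2 (up to 0.113), and Dusp14 in H1093K without any 1 array outside K165A (up to 0.258).

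Calls in the kinase cascade itself stood near or below the shares over all probe sets. Of 22 genes from Ras to ERK and its RSK kinases, 15 were tested. In WT against delta 1 fell, the Ras exchange factor Sos1 (1.50-fold, limma adjusted p = 0.0476, lost without any 1 array outside K165A, up to 0.246). In K165A and H1093K 0 passed by limma, with 1 in each at an unadjusted p under 0.05. Over all 13576 probe sets tested, 3382 and 1607 had such a p in K165A and H1093K. On the arrays labelled deleted 4 rose and 1 fell, led by the scaffold gene Ksr1 (1.56-fold, limma adjusted p = 0.00697), and the list median was 0.23. These 5 of 15 became 8 with the replicate block, which left the counts in WT, K165A and H1093K at 1, 0 and 0. In a separate list of 18 genes that ERK signalling is known to induce, 15 were tested. Against delta, 2 rose and 3 fell in WT, 1 rose and 3 fell in K165A, and 1 of each in H1093K. The shares over all probe sets were 11.9%, 11.3% and 0.818%. On the arrays labelled deleted 4 rose and 2 fell, beside 33.0%, among them Ccnd1 with a rise of 2.97-fold and Phlda1 with a fall of 2.02-fold (limma adjusted p = 8.04e-05 and 5.86e-04). Egr2, a growth factor-induced transcription factor, rose 1.87-fold in WT, 1.75-fold in K165A and 1.83-fold in H1093K (limma adjusted p = 0.00145, 0.00287 and 0.0187), and 6.50-fold on the arrays labelled deleted (2.69e-07). The H1093K call was lost without delta replicate 2 or either H1093K array (up to 0.160). Ier3 fell 1.55-fold in WT, 1.57-fold in K165A and 1.49-fold on the arrays labelled deleted (limma adjusted p = 6.27e-04, 5.03e-04 and 3.45e-04), whichever array was left out. Its fall of 1.46-fold in H1093K (limma adjusted p = 0.0187) did not hold so. Lif, a cytokine gene, fell 1.79-fold in WT and 1.71-fold in K165A (limma adjusted p = 0.0199 and 0.0293). The first call was lost without WT replicate 1 or delta replicate 2 (up to 0.141), the second without delta replicate 2 or either K165A array (up to 0.183). The list's counts with the block were 6 in WT, 6 in K165A and 2 in H1093K, and in H1093K against WT they rose from 0 to 4, all lower. The list median was 0.20 in WT, 0.08 in K165A and -0.11 in H1093K, beside 0.00 over all probe sets in each. In H1093K against WT it was -0.27. By the counts, genes of the list went both ways in each comparison with delta.

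**Figure D4:**
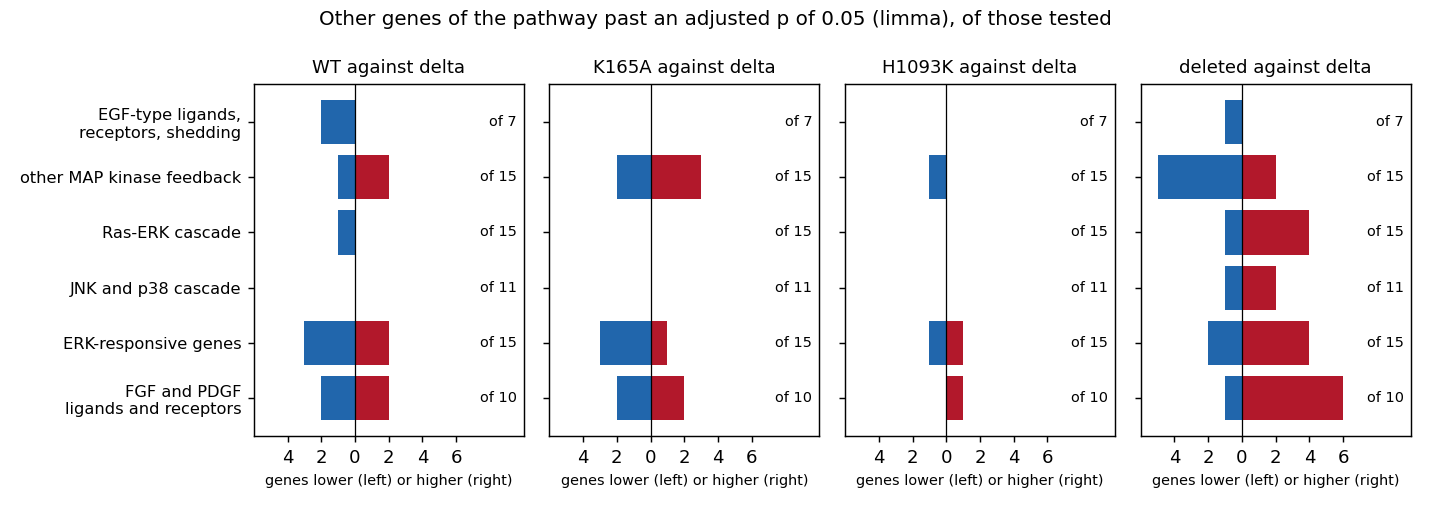
Number of genes of each pathway list called lower (blue, left of 0) or higher (red, right of 0) against delta (x axis), by list (y axis) and comparison, with the number tested at the right. More calls fall on the arrays labelled deleted than in any other comparison drawn, and the Ras-ERK list has 1 call in WT and 0 in K165A and H1093K.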

How the data were processed

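The authors deposited 1 linear signal intensity per probe set and array, computed in GCOS 1.4 per the submitters' processing notes, which name no scaling or background options. Per the labels' protocols, Trizol-extracted total RNA was biotin-labelled in 1 round. With 2% of probe sets trimmed from either end, the mean was 500.0 on every array, and array medians at 181 to 199, so no further scaling was applied. Of 22690 probe sets, 64 controls were left out; the platform annotation named 20380 of the others by 1 gene, 691 by several and 1555 by none, and updating through the RefSeq gene table changed 0 symbols. Positions come from RefSeq on GRCm38.p6; the sources used here name no build for the probes.

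Signals were analysed as log2(signal + 16), a scale that understates changes of dim probe sets. Probe sets with a mean log2 value under the 40th percentile were left out. In R 4.3.3, a linear model with a mean for each group was fitted to the 10 arrays in limma 3.58.1 (lmFit, then eBayes with trend;5 residual degrees of freedom, 4.73 from the prior), and each of 7 comparisons was adjusted by Benjamini-Hochberg over the 13576 probe sets. The fit was tested on simulated data. An exact 2-sided permutation test of 2 arrays against 2 cannot give a p under 0.333, so none is reported. A gene is taken by its probe set of highest mean. The members and all lists were chosen with earlier results of these data known. Named were every member, Ehmt2, up to 3 genes of largest change per pathway list and comparison, the marker genes, and the 5 genes closest to Dusp6 and to Hbegf by Pearson's r. Arrays with the same replicate number in their titles deviated together, with a correlation of 0.234 to 0.527 between all 10 pairs of groups, so the number was used as a block in an alternative fit. Other alternatives were the pseudocount, the filter, quantile normalization, median centring, the arrays fitted, the intensity trend, the probe set per gene, and leaving out each array.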

Additional observations from a re-analysis of the deposited data

How the results depend on the processing

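Of the settings tried, the replicate block, the choice of arrays fitted and single arrays moved the counts most. With the replicate block, probe sets called were 2813 in WT against delta, 2678 in K165A against delta, 472 in H1093K against delta, 1946 in H1093K against WT and 1854 in K165A against H1093K, and member genes called were 1 in H1093K against delta and 2 in H1093K against WT. It gave 3 in place of 2 in K165A against delta and in K165A against H1093K, and left 2 in WT against delta and 5 in deleted against delta. It ended no call of the pathway lists. With only the arrays compared, 805 probe sets passed in K165A against delta, 0 in H1093K against delta (by limma, against 1607 at an unadjusted p under 0.05 in the full fit) and 663 in K165A against H1093K, and member genes called fell to 1 in WT against delta, K165A against delta and K165A against H1093K. The count of probe sets in H1093K against delta, 111, was 60 with no filter, 65 without the arrays labelled deleted and 53 with no intensity trend. Member genes called in H1093K against WT were 2, not 1, with the filter at the 60th percentile, quantile normalization, median centring or any probe set of a gene.

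With 1 array left out, probe sets called ranged from 781 to 1566 in WT against delta, 823 to 1351 in K165A against delta, 7 to 88 in H1093K against delta, 548 to 1034 in H1093K against WT, 542 to 948 in K165A against H1093K and 3106 to 4489 in deleted against delta. Member genes called ranged from 1 to 2 in WT against delta, 0 to 2 in K165A against delta, 1 to 2 in H1093K against WT and 1 to 2 in K165A against H1093K, and stayed at 5 in deleted against delta and 0 in H1093K against delta. The lowest K165A count came without K165A replicate 1, which took both Spry1 and Spry2.

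Changes of sign were confined, among the member values computed, to differences that had not passed. Dusp1 in WT against delta became -0.049 under quantile normalization and ranged from -0.071 to 0.26 with 1 array left out, the lowest without WT replicate 1. Spry1 in H1093K against WT became -0.010 under quantile normalization and -0.014 under median centring and ranged from -0.016 to 0.040 with 1 array left out, and in K165A against H1093K it ranged from -0.11 to 0.0041. Hbegf in H1093K against delta ranged from -0.0041 to 0.15, and at its other probe set from -0.062 to 0.18. Ereg in K165A against delta ranged from -0.053 to 0.096. Egfr in deleted against delta became -0.087 with the mean of its probe sets and ranged from -0.0072 to 0.15. In H1093K against delta, the second-brightest Egfr probe set ranged from -0.094 to 0.040 and the third from -0.083 to 0.039. Of 952 alternative values of tested member differences, 892 kept their direction and their side of the threshold, and of 445 of untested ones, 426 moved by less than the spread between replicates. The filter, the intensity trend, the replicate block and arrays of groups not compared cannot change a difference between group means. The kept directions and the 426 were thus partly fixed in advance and do not measure how firm a difference is.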

Other observations

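Growth factors of other receptor families were also counted. Of 18 FGF and PDGF ligands and receptors, 10 were tested, and 2 rose and 2 fell in both WT and K165A against delta, 1 rose in H1093K, and 6 rose and 1 fell on the arrays labelled deleted. Among all probe sets, 11.9% were called in WT, 11.3% in K165A, 0.818% in H1093K and 33.0% on the arrays labelled deleted, each against delta. Pdgfc, a ligand of PDGF receptors, had a mean signal of 277 ± 13.4 in WT and 364 ± 8.48 in K165A, against 595 ± 85.9 in delta, 1074 ± 54.0 in H1093K and 1272 ± 118 on the arrays labelled deleted (SD, n = 2 each). It fell 2.08-fold in WT (limma adjusted p = 2.68e-04) and 1.60-fold in K165A (adjusted p = 0.00409), and H1093K stood 3.72-fold above WT (1.25e-05). These held whichever array was left out, while the rise of H1093K over delta (1.79-fold, limma adjusted p = 0.0148) did not (up to 0.144). The receptor gene Pdgfrb rose 2.07-fold in WT and 1.98-fold in K165A (limma adjusted p = 0.00119 and 0.0018), with each array left out as well. Fgf18, a ligand of FGF receptors, was 2.62-fold lower in H1093K than in WT (limma adjusted p = 0.00414), a call kept with each array left out. Of 16 genes of the JNK and p38 cascade, 11 were tested. By limma 0 passed in WT, K165A or H1093K against delta, with 1, 2 and 1 at an unadjusted p under 0.05. Over all 13576 probe sets tested, 3527, 3382 and 1607 had such a p in these comparisons. With the replicate block Map3k1, a kinase upstream of JNK, was called higher in WT (adjusted p = 0.0195) and K165A (0.0122), and the p38 gene Mapk11 lower in WT (0.0391), while H1093K stayed at 0. On the arrays labelled deleted 2 rose and 1 fell (2 and 3 with the block), beside 33.0% of all probe sets without the block. Map3k1 rose 1.94-fold there and the p38 gene Mapk12 fell 1.71-fold (limma adjusted p = 0.00681 and 1.95e-04).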
